A study of Mus musculus with 12 samples.

Results

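The low-density lipoprotein (LDL) receptor family was read from 8 genes, *Vldlr*, *Lrp1*, *Lrp2*, *Lrp4*, *Lrp5*, *Lrp6*, *Lrp8* and *Lrpap1*, out of 20660 named genes on the array. Every probe whose listed transcript belongs to one of these genes was taken, which gave 12 of 55681 probes. RNA came from subcutaneous white fat (scWAT) and brown fat (BAT) of mice that lacked *Lr11* (*Sorl1*), a sorting receptor that carries LDL receptor-type repeats itself, and of wild-type (WT) littermates. All were C57Bl6/J males aged 12 weeks on a high fat diet (HFD) with 60% of calories from fat, and the labels give the diet both as 4 weeks and as since weaning, so its length is not settled. Both genotypes were sampled in both fats, which gave 4 groups of 3 arrays. The labels tie no array to an animal, so p values measure the spread between these arrays, which may be technical. The tissue was ground before RNA was made, so that fewer cells of a type and less RNA per cell cannot be told apart.

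Members of this family are cell surface receptors that bind lipoproteins, proteases, protease inhibitors or signalling proteins through cysteine-rich repeats and take them into the cell or pass on a signal. In fat, VLDLR and LRP1 are known for handling triglyceride-rich lipoproteins and their remnants, while LRP5 and LRP6 are co-receptors for Wnt proteins, which hold back the formation of adipocytes. *Lrpap1* encodes the receptor-associated protein, a chaperone of the endoplasmic reticulum that keeps newly made receptors of the family from binding ligands too early.

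Levels are log2 intensities minus the 75th percentile of the array, with 0 at that percentile, and differences between groups are on the same log2 scale. On the 12 arrays 32377 to 37002 spots were well above background, the software's call that a spot is brighter than its surroundings, and 0 were saturated. The probe of *Sorl1*, the targeted gene, fell by 4.34 in *Lr11* -/- scWAT (limma, adjusted p = 0.0063) and fell by 3.63 in *Lr11* -/- BAT (adjusted p = 0.0319), though it was still well above background on those arrays. It passed the threshold in 27 of 28 other settings in scWAT but in 10 of 28 in BAT, where its difference stayed between -3.91 and -2.45 and its adjusted p was 0.0624 with array series as a block and 0.0857 with slide. All 12 arrays followed their labels for this gene, but 3 scWAT arrays stood apart in their correlations and fat cell markers. WT scWAT replicate 2 had a mean correlation of 0.871 with the other scWAT arrays and 0.822 with BAT, held the highest or lowest value of the 12 arrays for 48.4% of the tested probes, and had an adipocyte marker mean of 3.09 where the other arrays lay between 5.63 and 7.17. Replicates 2 and 3 of *Lr11* -/- scWAT correlated more closely with BAT (mean r of 0.970 each) than with the other scWAT arrays (0.921 and 0.918), and their brown adipocyte marker means of 7.58 and 7.45 lay above and near the top of the BAT range of 6.37 to 7.47, where replicate 1 was at 3.38 and WT scWAT between -3.31 and 2.46. Skeletal muscle markers split the arrays in another way. All 9 were well above background on WT scWAT replicate 3, *Lr11* -/- scWAT replicate 1, WT BAT replicates 1 and 3 and *Lr11* -/- BAT replicate 1. Their mean was 4.75 to 8.0 on those arrays and -5.03 to -3.68 on the rest. Epithelium was at 1.28 on *Lr11* -/- scWAT replicate 1 and from -4.71 to -2.45 elsewhere. The means ran from -3.33 to 2.19 for nerve and Schwann cell and from 1.71 to 3.06 for endothelium. The mean of 6 B lymphocyte markers was dim but lower in *Lr11* -/- without overlap in both fats, at -3.91 to -3.88 against -2.99 to -2.63 in scWAT and at -4.05 to -3.62 against -3.37 to -3.15 in BAT. Of all tested probes 8.76% in scWAT and 4.65% in BAT were lower in *Lr11* -/- without overlap. Of the 4 of these markers that were tested 0 were called in either fat by limma. In scWAT 3 and in BAT 2 had an unadjusted p under 0.05, beside 27.6% and 2.12% of all probes. The part of B lymphocytes in the genotype differences was not tested. Replicate numbers are names only, except that replicate 1 of each group belonged to the first of 2 array series.

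**Figure D1:**
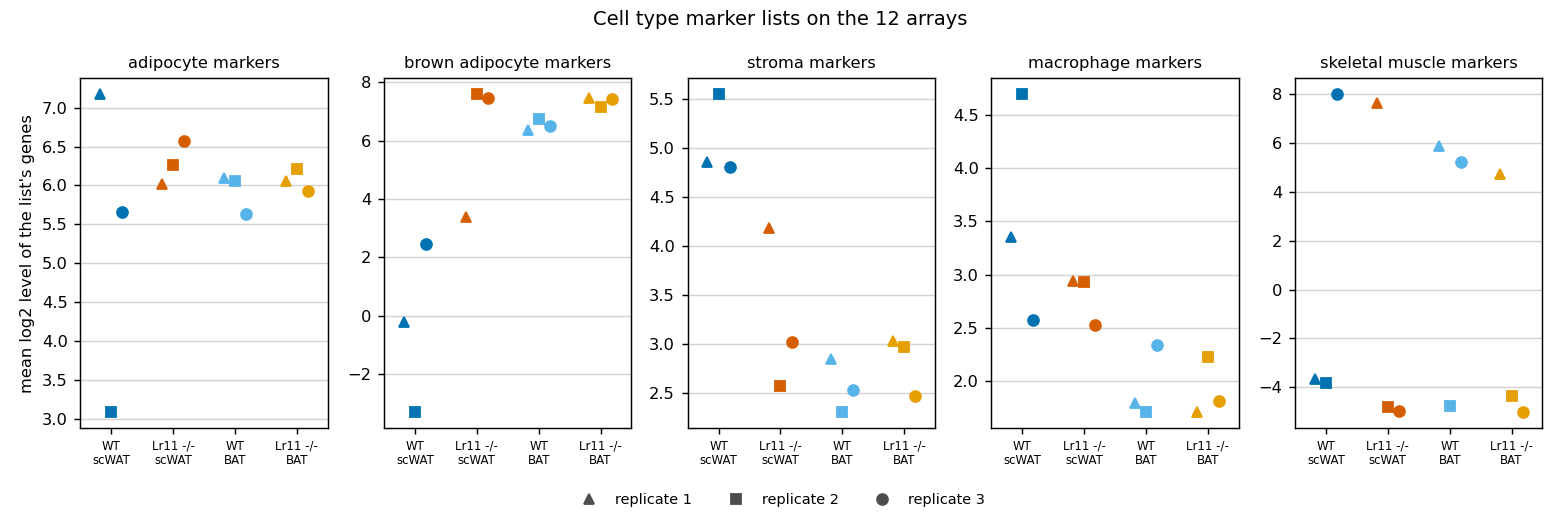
Mean log2 level of 5 lists of cell type marker genes (vertical axes) on each of the 12 arrays, with groups along the horizontal axes and the point shape giving the replicate. WT scWAT replicate 2, the square in the first column, lies lowest for adipocyte markers at 3.09 and highest for stroma and macrophage markers at 5.54 and 4.70.

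Loss of *Lr11* left no member of the family past the threshold in either tissue. Of the 8 genes 5 could be tested (*Vldlr*, *Lrp1*, *Lrp5*, *Lrp6* and *Lrpap1*), with 8 of the 12 probes, while *Lrp2*, *Lrp4* and *Lrp8* were not well above background on all arrays of any group. With each gene read from its brightest tested probe, 0 of 5 were called in scWAT and 0 of 5 in BAT at an adjusted p under 0.05 by limma, and 0 in each tissue had an unadjusted p under 0.05. Of all probes tested, 5.27% were called in scWAT and 0.0187% in BAT, and 27.6% and 2.12% had an unadjusted p under 0.05. The median difference of the 5 genes was -0.11 in scWAT and 0.15 in BAT, against 0.04 in each for all tested probes. For 0 of 5 genes did the genotype effect in one fat differ from that in the other past the threshold, as for 0% of all probes, and 0 of 5 against 11% had an unadjusted p under 0.05. With brightest probes, only the Wnt co-receptor *Lrp5* had an unadjusted p under 0.05 in any of the 5 comparisons, between BAT and scWAT of WT mice, where 40.1% of all probes did. After adjustment 0 of 5 were called there, against 24.8% of all probes. A second *Lrpap1* probe, described below, also had an unadjusted p under 0.05 there (0.00859, limma) and between genotypes in scWAT (0.00476). In *Lr11* -/- mice 0 of 5 were called between the tissues, against 0.0405% of all probes (unadjusted, 0 of 5 against 9%), and 0 of 5 had tissues without overlap, against 23.2%.

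**Figure D2:**
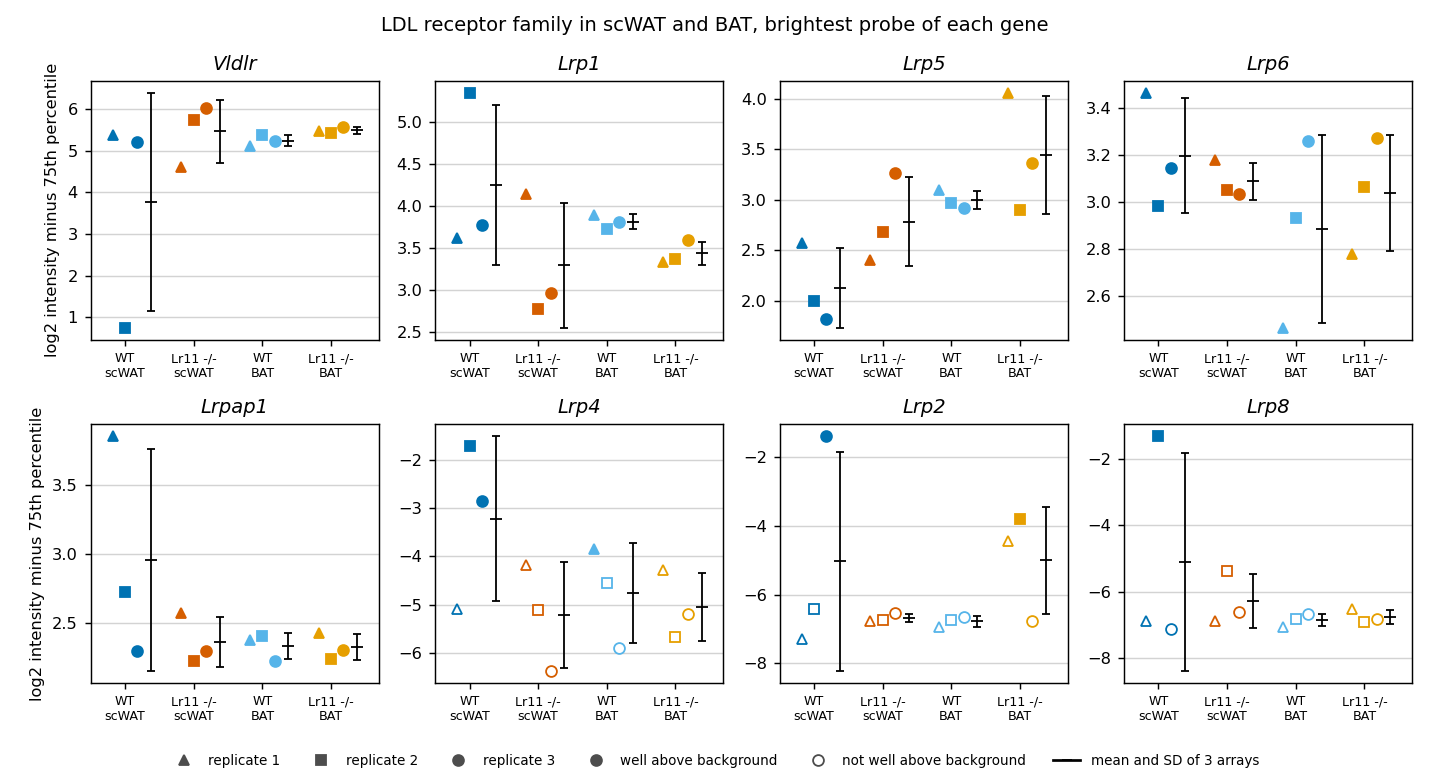
Log2 intensity minus the array's 75th percentile (vertical axes, each with its own range) for the brightest probe of each of the 8 genes on the 12 arrays, by group. Point shapes give the replicate, open points were not well above background, and bars show mean and SD of 3 arrays. *Vldlr* was lowest at 0.75 on WT scWAT replicate 2 against 4.62 or more on the other 11 arrays.

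*Vldlr* encodes the very low-density lipoprotein receptor, which binds apolipoprotein E-rich particles and brings them near lipoprotein lipase on the capillary wall. The scWAT arrays of WT mice read 5.36, 0.75 and 5.20 on replicates 1, 2 and 3 (mean 3.77 ± 2.62, SD, n = 3), and those of *Lr11* -/- mice 4.62, 5.73 and 6.03 (5.46 ± 0.75). The BAT arrays read 5.11, 5.38 and 5.24 for WT (5.24 ± 0.14) and 5.46, 5.42 and 5.57 for *Lr11* -/- (5.48 ± 0.08). A single array, WT scWAT replicate 2, was low, by 3.87 against the next lowest of the 12, and the scWAT groups overlapped, since *Lr11* -/- replicate 1 lay below WT replicates 1 and 3.

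The difference between *Lr11* -/- and WT scWAT for *Vldlr* was 1.69 (SE 0.98, 95% confidence interval -0.47 to 3.86), with an adjusted p of 0.287 by limma. Without WT scWAT replicate 2 it was 0.18 (SE 0.36, interval -0.62 to 0.98, adjusted p = 0.821), and in the first array series, with 1 array a group and no test, it was -0.75, against 2.91 in the second (adjusted p = 0.146). Without *Lr11* -/- scWAT replicates 2 and 3 it was 0.85. *Vldlr* is also in a list of genes that the study chose on these same arrays for their change in scWAT, so its direction there is not independent evidence. In BAT the *Lr11* -/- arrays were all above the WT arrays, by 0.24 on average (interval -1.92 to 2.41, adjusted p = 1). The fit uses 1 spread per probe over all 4 groups, so this interval also carries the scatter of WT scWAT (SD 2.62). The BAT SDs were 0.14 for WT and 0.08 for *Lr11* -/-. Without WT scWAT replicate 2 the BAT difference was 0.24 (SE 0.32, interval -0.47 to 0.96). Over all tested probes 12% did not overlap between the genotypes in BAT, 7.39% with *Lr11* -/- higher, and *Vldlr* and *Lrp1* were the 2 of 5 members that did not. WT BAT minus WT scWAT was 1.47 for *Vldlr* (SE 0.98, adjusted p = 0.285) and -0.04 without WT scWAT replicate 2, and in *Lr11* -/- mice the tissues differed by 0.02.

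A second *Vldlr* probe (A_55_P2174836, beside A_55_P2030524 above) followed the first, with r = 0.992 over the 12 arrays and 0.813 over 10, without the arrays farthest from the median of the first probe. On WT scWAT replicate 2 it read -3.62, and on the other 11 arrays between 1.99 and 3.07. Its scWAT difference was 2.23 with all arrays (SE 1.26, adjusted p = 0.274) and 0.23 without that array (SE 0.30, adjusted p = 0.709). On both probes the scWAT difference was thus near 0 once that array was left out. On that array the markers of adipocytes were low and those of stroma (5.54, against 4.80 to 4.85 on the other WT scWAT arrays) and macrophages (4.70, against 2.57 and 3.36) were high. Their part in the *Vldlr* value was not tested.

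For *Vldlr* the RefSeq table held windows before 2 starts, 536 bases apart, and the files do not say which start these probes report. *Vldlr*, which had the widest scWAT difference of the tested members, is shown with the 250 bases before its upstream start, from assembly GRCm38.p6, chr19:27216234-27216483, plus strand, written 5′ to 3′.
Vldlr: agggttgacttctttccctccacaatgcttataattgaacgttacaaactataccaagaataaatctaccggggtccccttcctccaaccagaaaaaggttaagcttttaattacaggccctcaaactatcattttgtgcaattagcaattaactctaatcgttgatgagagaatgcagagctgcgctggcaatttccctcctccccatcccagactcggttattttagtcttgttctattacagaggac
Searched on both strands, it held 0 matches to the nuclear receptor half-site AGGTCA, the GC box GGGCGG, the CCAAT box or the E-box CACGTG. The window before the downstream start held 1 GC box and 1 CCAAT box, both on the minus strand. Of all 32851 such windows 14% held the half-site, 32.7% a GC box, 33.8% a CCAAT box and 6.02% the E-box. A match or its absence in these letters is a description only.

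*Lrp1* encodes a large endocytic receptor that clears lipoprotein remnants and complexes of proteases with their inhibitors. Replicates 1, 2 and 3 read 3.62, 5.35 and 3.78 for WT scWAT, against 4.15, 2.77 and 2.97 for scWAT of *Lr11* -/- mice. For BAT they read 3.90, 3.73 and 3.82 with *Lr11* and 3.34, 3.38 and 3.60 without it. WT scWAT replicate 2 was again the extreme array, here the highest of the 12, while *Lr11* -/- scWAT replicates 2 and 3 were the lowest pair.

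For *Lrp1* the scWAT difference of *Lr11* -/- from WT was -0.95 (SE 0.46, interval -1.97 to 0.06, adjusted p = 0.206). It was -0.40 without WT scWAT replicate 2 (SE 0.36, interval -1.21 to 0.40, adjusted p = 0.561), -0.10 without *Lr11* -/- scWAT replicates 2 and 3, 0.53 in the first array series and -1.70 in the second (adjusted p = 0.053). The direction thus turned between the series, and with array series as a block its adjusted p was 0.223. In BAT the *Lr11* -/- arrays lay below the WT arrays without overlap, at a difference of -0.38 (interval -1.39 to 0.64, adjusted p = 1), beside 4.65% of all probes that were lower without overlap. This interval too carries the scatter of scWAT, and without WT scWAT replicate 2 it was -1.09 to 0.34. The stroma marker mean, which was 4.80 to 5.54 in WT scWAT, was 2.57 and 3.01 on the *Lr11* -/- scWAT replicates with low *Lrp1* and 4.18 on replicate 1. On the BAT arrays that mean was also low, at 2.30 to 3.02, with *Lrp1* at 3.34 to 3.90. The part of stroma in the *Lrp1* values was not tested. Between BAT and scWAT *Lrp1* differed by -0.44 in WT mice (SE 0.46, adjusted p = 0.507), or 0.11 without WT scWAT replicate 2, and by 0.14 in *Lr11* -/- mice.

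**Figure D3:**
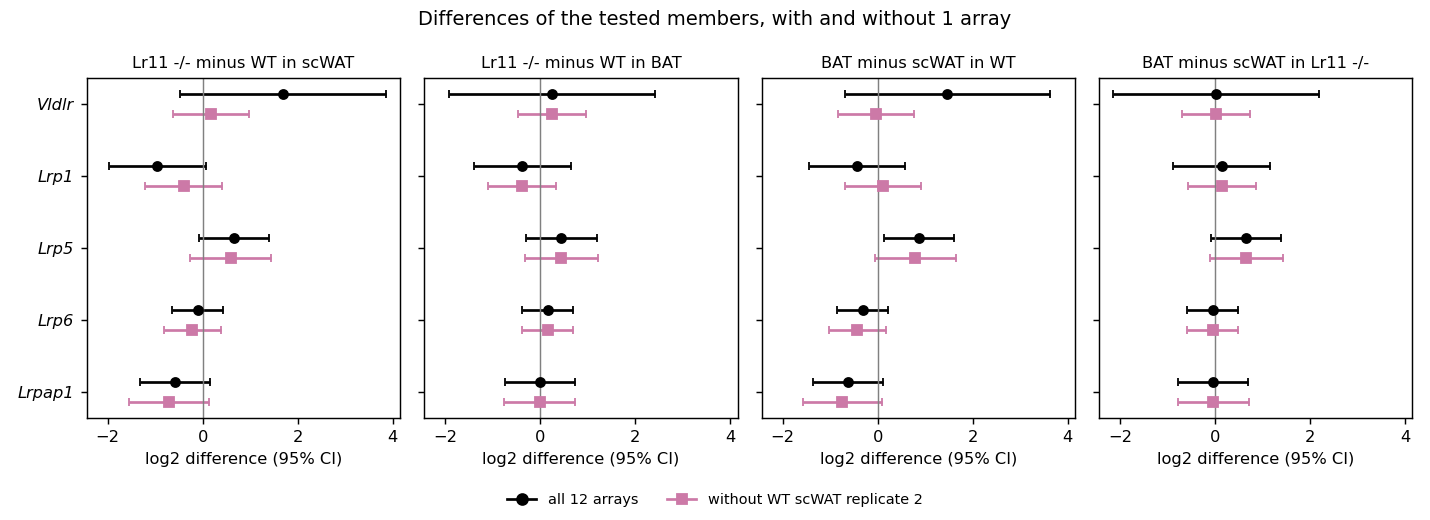
Log2 differences with 95% confidence intervals (horizontal axes) of the 5 tested genes in 4 comparisons, with all 12 arrays (black circles) and without WT scWAT replicate 2 (pink squares). In the first panel *Vldlr* moved from 1.69 to 0.18 and *Lrp1* from -0.95 to -0.40 when that array was left out, and every interval drawn in the genotype panels spans 0.

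*Lrp5* and *Lrp6* encode the co-receptors that join Frizzled proteins in canonical Wnt signalling. For *Lrp5* the WT scWAT arrays read 2.58, 2.0 and 1.82, and scWAT of *Lr11* -/- mice read 2.40, 2.68 and 3.26. The WT BAT arrays read 3.09, 2.97 and 2.92, and BAT of *Lr11* -/- mice read 4.06, 2.90 and 3.37. Every WT BAT array was thus above every WT scWAT array, and the genotypes overlapped in both tissues.

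From low to high the means of *Lrp5* were 2.13 ± 0.40 (SD, n = 3) for WT scWAT, 2.78 ± 0.44 for scWAT without *Lr11*, 3.00 ± 0.09 for WT BAT and 3.44 ± 0.58 for BAT without *Lr11*. Neither genotype step passed the threshold, and scWAT without *Lr11* was not tested against WT BAT. BAT minus scWAT of WT mice was 0.86 (SE 0.33, interval 0.13 to 1.60, adjusted p = 0.0804, limma). *Lrp5* was the 1 gene of 5 without overlap in that comparison, against 40.2% of all probes (24.3% with BAT higher). With slide as a block it was 0.70 (adjusted p = 0.207). It passed the threshold without WT scWAT replicate 1 (1.09, adjusted p = 0.0409) and in the second array series alone (1.04, adjusted p = 0.0434). In those fits 10231 and 8130 of the 32121 tested probes were called, against 7970 with all arrays. In scWAT *Lr11* -/- differed from WT by 0.65 (SE 0.33, adjusted p = 0.233), and by 1.06 in the second array series alone (adjusted p = 0.0435) where the single pair of the first series gave -0.17. In this comparison 7259 of all probes were called in the second series alone, against 1692 with all arrays. In BAT the genotype difference was 0.45 (SE 0.33, adjusted p = 1), and BAT minus scWAT of *Lr11* -/- mice was 0.66 (SE 0.33, adjusted p = 0.594). Of 7 brown adipocyte markers 4 were called higher in *Lr11* -/- scWAT, beside 3.4% of all probes. All but *Dio2* are in the list of genes that the study chose on these same arrays, so that count is not independent evidence. The mean of the 7 was 7.58 and 7.45 on *Lr11* -/- scWAT replicates 2 and 3, where *Lrp5* was at 2.68 and 3.26, and 3.38 on replicate 1. On WT scWAT replicates 1, 2 and 3 it was -0.21, -3.31 and 2.46, where *Lrp5* was at 2.58, 2.0 and 1.82. The part of these markers in the *Lrp5* values was not tested.

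*Lrp6* had the narrowest range of the 5 tested members. Over the 12 arrays it ran from 2.46 to 3.47, both ends being arrays of the first series, with means of 3.20 ± 0.25 in WT scWAT, 3.09 ± 0.08 in *Lr11* -/- scWAT, 2.88 ± 0.40 in WT BAT and 3.04 ± 0.25 in *Lr11* -/- BAT. The genotype differences were -0.11 in scWAT (interval -0.65 to 0.43, adjusted p = 0.796) and 0.15 in BAT (interval -0.39 to 0.70, adjusted p = 1), and BAT minus scWAT was -0.31 in WT mice (SE 0.24, adjusted p = 0.362). A second *Lrp6* probe ran from -1.20 to -0.34, followed the first loosely (r = 0.477, and 0.709 without the 2 arrays farthest from the median), and gave genotype differences of 0.02 and 0.08.

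*Lrpap1*, the chaperone, read 3.85, 2.72 and 2.30 on the WT scWAT arrays with its brightest probe. On the other 9 arrays it lay between 2.23 and 2.57, with means of 2.37 ± 0.18 in *Lr11* -/- scWAT, 2.34 ± 0.09 in WT BAT and 2.33 ± 0.09 in *Lr11* -/- BAT. WT scWAT replicate 1 was thus the high array, and WT scWAT replicate 3 lay among the other groups. The scWAT genotype difference was -0.59 (SE 0.33, interval -1.33 to 0.15, adjusted p = 0.275) and -0.14 without WT scWAT replicate 1, with -1.28 in the first array series and -0.25 in the second. WT BAT differed from WT scWAT by -0.62 (SE 0.33, adjusted p = 0.188), by -0.17 without WT scWAT replicate 1 (adjusted p = 0.549), and by -0.95 without WT scWAT replicate 3, which passed the threshold (adjusted p = 0.0429). Over all probes 8932 were called in that last fit, against 7970 with all arrays.

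The second *Lrpap1* probe (A_51_P513941, beside A_52_P583973) separated WT scWAT from the other groups more clearly. It read 3.70, 2.38 and 2.17 for WT scWAT and 1.64, 1.43 and 1.55 for scWAT of *Lr11* -/- mice. For BAT it read 1.77, 1.65 and 1.55 with *Lr11*, against 1.41, 1.62 and 1.33 without it. All WT scWAT arrays were above all 9 others. The 2 probes had r = 0.921 over the 12 arrays but 0.05 without the 2 farthest from the median of the first probe, so their agreement rested on those arrays. This was the only one of the 8 tested probes of the family past the threshold: BAT minus scWAT of WT mice was -1.09 (SE 0.34, adjusted p = 0.0395, limma). In that comparison 24.8% of all probes were called, 9.13% with BAT lower. The groups did not overlap, as for 15.9% of all probes in this direction. With 1 array left out at a time it passed in 4 of 12 fits (adjusted p of 0.0154 to 0.105), and it was -0.62 without WT scWAT replicate 1. These 4 left out WT scWAT replicate 1, 2 or 3 or *Lr11* -/- scWAT replicate 1. Over all probes they had 10231, 5286, 8932 and 9521 calls in turn, against 7970 with all arrays. In scWAT *Lr11* -/- minus WT was -1.21 (SE 0.34, adjusted p = 0.0618) with groups that did not overlap, as for 20.4% of all probes (8.76% with *Lr11* -/- lower). It passed in 3 of 12 such fits (adjusted p of 0.0208 to 0.205), among them that without WT scWAT replicate 1, at -0.73 (adjusted p = 0.0379). These 3 left out WT scWAT replicate 1 or 3 or *Lr11* -/- scWAT replicate 1. Over all probes they had 4409, 4617 and 6371 calls in turn, against 1692 with all arrays. With brightest probes, 0 of the 5 genes had scWAT genotypes without overlap.

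The window of 250 bases before the start of *Lrpap1* is shown because this gene held the 1 called probe, and is taken from RefSeq on GRCm38.p6, chr5:35105700-35105949, minus strand, written 5′ to 3′ along the gene.
Lrpap1: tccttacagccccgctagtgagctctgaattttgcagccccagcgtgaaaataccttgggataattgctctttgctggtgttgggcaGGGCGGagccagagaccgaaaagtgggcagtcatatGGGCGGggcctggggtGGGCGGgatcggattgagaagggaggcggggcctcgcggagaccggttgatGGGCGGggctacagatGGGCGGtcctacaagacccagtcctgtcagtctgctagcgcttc
Capitals mark 5 matches to the GC box GGGCGG, all on the plus strand of the gene and 44 to 163 bases before the start, a motif held at least once by 32.7% of all windows. Windows were given for 5 of the 8 genes (*Vldlr*, *Lrp1*, *Lrp2*, *Lrp8* and *Lrpap1*).

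**Figure D4:**
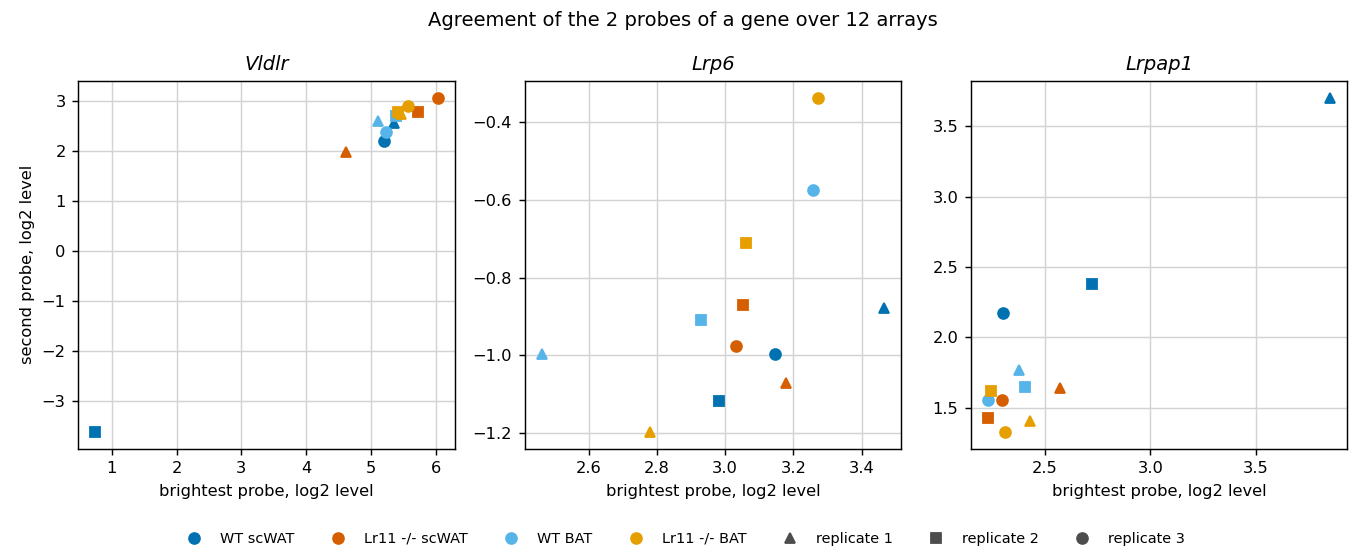
Log2 level of the brightest probe (horizontal axes) against the second probe (vertical axes) of *Vldlr*, *Lrp6* and *Lrpap1* on 12 arrays, with colour for the group and shape for the replicate. WT scWAT replicate 2 lies alone at the low end for *Vldlr* (r = 0.992), WT scWAT replicates 1 and 2 alone at the high end for *Lrpap1* (r = 0.921, and 0.05 without the 2 arrays farthest from the median), and the probes of *Lrp6* followed each other loosely (r = 0.477).

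The remaining receptors were dim in both fats. *Lrp4*, a receptor for agrin at the neuromuscular junction, was well above background on 2 of 3 WT scWAT arrays (-1.72 and -2.85 on replicates 2 and 3, with -5.09 on replicate 1) and on WT BAT replicate 1 (-3.85). On the *Lr11* -/- arrays it was well above background on 0 of 3 in each tissue, with readings of -4.19, -5.11 and -6.38 in scWAT and -4.28, -5.68 and -5.19 in BAT. With the dim arrays raised to the lowest signal well above background on them, its WT scWAT mean was at least 2.33-fold higher than that of *Lr11* -/- scWAT, on measured means of -3.22 and -5.22, and the fit over tested probes did not include it. That mean includes WT replicate 1, itself not well above background, and the bound was 1.39-fold without WT scWAT replicate 2 and 4.46-fold without replicate 1. Fitted without the filter on dim probes, the difference was -2.00 (SE 0.87, adjusted p = 0.262 by limma). The WT scWAT arrays themselves varied by 1.72 (SD, n = 3).

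*Lrp2* encodes megalin, best known from the kidney tubule. It was well above background on WT scWAT replicate 3 (-1.38) and *Lr11* -/- BAT replicate 2 (-3.81) only, and read between -7.29 and -4.43 on the other 10 arrays. WT scWAT replicate 3 also had the highest skeletal muscle marker mean of the 12 arrays (8.0, against -3.68 and -3.81 on the other WT scWAT arrays), while *Lr11* -/- scWAT replicate 1, at 7.67 for muscle, had *Lrp2* at -6.78. The part of muscle in the *Lrp2* value was not tested.

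*Lrp8* encodes apolipoprotein E receptor 2, a receptor for reelin in the brain. Its 2 probes were well above background on WT scWAT replicate 2 only, at -1.29 and -3.17, and lay between -7.47 and -5.37 on the other 11 arrays, with r = 0.960 between them (0.792 without the 2 arrays farthest from the median). The array that was lowest for *Vldlr* and highest for *Lrp1* was thus also the array with *Lrp8* signal. No fold is given for *Lrp2* or *Lrp8*, as the mean of the brighter group lay under the lowest signal well above background in the other.

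The likeness of other genes to a member was ranked over 14709 named genes for *Vldlr* and *Lrp5*, whose group means spanned 1.71 and 1.31. For *Vldlr* the closest were *Dynll2*, *Bche*, *Timp4*, *Lrrc39* and *Ipp*, with Pearson's r of 0.973 to 0.976 over the 12 arrays. Without WT scWAT replicate 2, *Dynll2* was at 0.900 and the other four between 0.667 and 0.766, so that this array carried much of the likeness. For *Lrp5* they were *Ggnbp1*, *Spatc1l*, *Prpmp5*, *Ly6i* and *Eef1akmt2*, at 0.958 to 0.965, and at 0.951 to 0.959 without that array. All these values share the same 12 arrays and scaling, and the genes were picked for their high r.

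Around the family, 46 of 54 listed ligands, partners and other receptors were tested. In scWAT 5 differed between *Lr11* -/- and WT, 1 higher and 4 lower (1.87% of all probes were called lower and 3.4% higher), with a median difference of -0.40 against 0.04 for all probes. An unadjusted p under 0.05 was held by 15 of 46 there, beside 27.6% of all probes. In BAT 0 were called by limma (1 unadjusted, beside 2.12% of all probes) with a median of 0.01, and the genotype effects differed between the fats for 0 (7 unadjusted, beside 11%). Between BAT and scWAT of WT mice 16 were called, 7 higher and 9 lower in BAT, where 15.7% and 9.13% of all probes were (20 unadjusted, beside 40.1%). In *Lr11* -/- mice 0 were called between the tissues (5 unadjusted, beside 9%). With array series or slide as a block, *Fzd2* and *Cubn* passed between genotypes in scWAT, and *Plat*, *Dab2* and *Ldlrad3* did not (adjusted p of 0.0517, 0.0586 and 0.0521 with series, and of 0.0658, 0.0747 and 0.0658 with slide). *Cubn* entered the tests only through WT scWAT, the group where it was high, which favours a call. Of the 41 genes well above background on all 12 arrays, which leaves it out, 4 were called between genotypes in scWAT and 15 between the tissues of WT mice. Of all 25789 probes that met this filter 1643 and 6558 were called in turn. The scWAT count moved with single arrays. It was 0 when WT scWAT replicate 2, *Lr11* -/- scWAT replicate 2 or 3, WT BAT replicate 2 or 3, or *Lr11* -/- BAT replicate 1 was left out. Over all probes those fits had 222, 28, 3, 149, 145 and 158 calls in turn, against 1692 with all arrays. The scWAT count was 1 without WT BAT replicate 1 or *Lr11* -/- BAT replicate 2 or 3 (175, 162 and 163 of all probes). It was 12, 9 and 13 without WT scWAT replicate 1 or 3 or *Lr11* -/- scWAT replicate 1 (4409, 4617 and 6371 of all probes). Between the tissues of WT mice 9 of the 16 were called without WT scWAT replicate 2, and *Ccn2*, *Thbs1*, *Mylip*, *Mapk8ip2*, *Adam10*, *Axin2* and *Rapsn* were not. The count was 10, 5 and 8 without WT BAT replicate 1, 2 and 3, and with slide as a block 6 passed, *Ccn2*, *Fzd2*, *Dab2*, *Cubn*, *Ldlrad3* and *Dab1*. Of all probes 7970 were called between these tissues with all arrays, and 5286 without WT scWAT replicate 2. Without WT BAT replicate 1, 2 and 3 that number was 3886, 3276 and 5445, and with slide as a block 3993.

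**Figure D5:**
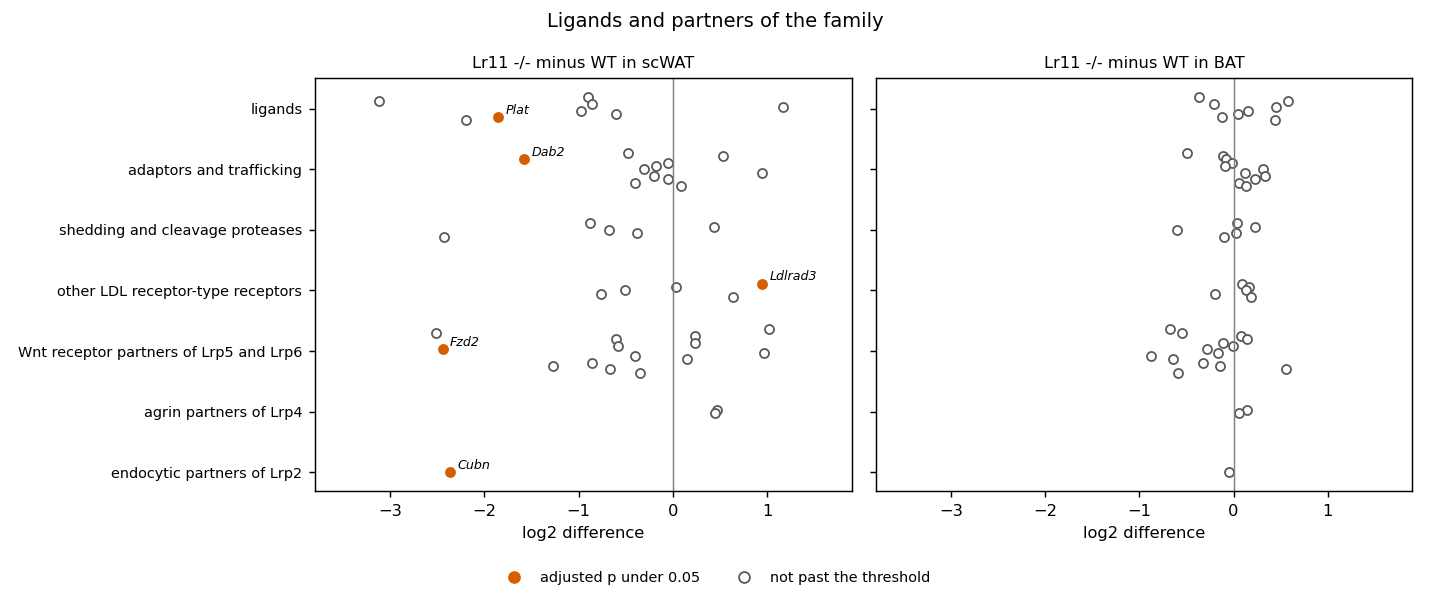
Log2 differences of *Lr11* -/- from WT (horizontal axes) for the tested genes of 7 lists of ligands and partners (vertical axis) in scWAT and BAT, where each point is 1 gene and filled, named points had an adjusted p under 0.05 by limma over 32121 probes. In scWAT 5 genes were past the threshold with all 12 arrays and 0 without WT scWAT replicate 2, beside 1692 and 222 of all probes, and in BAT 0 were.

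Among the ligands 1 of 8 tested fell in scWAT of *Lr11* -/- mice and 0 rose. *Plat*, the tissue plasminogen activator, a protease and ligand of LRP1, read -0.03, 1.47 and 0.03 for WT scWAT against -0.82, -1.94 and -1.33 without *Lr11*, and fell by 1.85 (SE 0.43, adjusted p = 0.0436, limma). Without WT scWAT replicate 2 it was -1.36 (adjusted p = 0.103).

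The ligands with the brightest probes did not pass. *Lpl*, the lipoprotein lipase with which VLDLR works, read 8.76, 6.02 and 6.70 for WT scWAT against 7.68, 8.67 and 8.64 without *Lr11*, a difference of 1.17 (SE 0.57, adjusted p = 0.208) between groups that overlapped. *Apoe*, the apolipoprotein that both VLDLR and LRP1 bind, differed by -0.90 (SE 0.40, adjusted p = 0.177). In WT mice *Plat*, *Thbs1* and *Ccn2*, the last pair encoding matrix-associated proteins that LRP1 takes up, were lower in BAT, with BAT minus scWAT at -1.72, -3.53 and -3.43 in turn (adjusted p of 0.0181 to 0.0236). Of 5 stroma and 4 macrophage markers 4 and 2 were also called lower in BAT there, and 0 higher, beside 9.13% of all probes called lower. The part of these cells in the list genes lower in BAT, here and below, was not tested.

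Of 5 other LDL receptor-type receptors, *Ldlrad3* rose in *Lr11* -/- scWAT by 0.95 (SE 0.24, adjusted p = 0.0473), from 5.09, 4.74 and 5.11 in WT to 5.74, 5.81 and 6.24. It was 0.83 without WT scWAT replicate 2 (adjusted p = 0.126). Between the tissues of WT mice *Ldlrad3* was higher in BAT by 1.53 (adjusted p = 0.00377) and *Lrp3* by 0.74 (adjusted p = 0.0319). *Lrp10* and *Lrp12*, with the brightest probes of the rest, had scWAT genotype differences of 0.03 (SE 0.24) and -0.76 (SE 0.48), neither past the threshold (adjusted p = 0.949 and 0.329, limma).

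Of 11 adaptors and trafficking proteins, *Dab2*, which links these receptors to clathrin, fell by 1.58 in *Lr11* -/- scWAT (SE 0.40, adjusted p = 0.0494, and -1.10 with an adjusted p of 0.115 without WT scWAT replicate 2). In WT mice *Dab2* and *Mylip*, a ubiquitin ligase that sends receptors such as VLDLR to degradation, were lower in BAT, at -2.35 (adjusted p = 0.00474) and -1.03 (adjusted p = 0.0484), and *Dab1* and *Mapk8ip2* were higher, by 0.99 and 0.98 (adjusted p = 0.00675 and 0.0261). *Snx17*, a sorting nexin that recycles LRP1, and *Mesd*, the chaperone of LRP5 and LRP6, had the brightest probes of the rest, with scWAT genotype differences of 0.09 (SE 0.25) and -0.20 (SE 0.17). Of 5 proteases that cleave such receptors or mature them, 0 were called between genotypes in scWAT (3 had an unadjusted p under 0.05, as did 27.6% of all probes), and *Adam10* (-1.13, adjusted p = 0.0342) and *Mmp14* (-3.40, adjusted p = 0.0168) were lower in BAT than in scWAT of WT mice. *Furin* and *Bace1* had scWAT genotype differences of -0.38 (SE 0.29) and -0.68 (SE 0.29).

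Of 14 Wnt partners of *Lrp5* and *Lrp6*, the receptor *Fzd2* fell by 2.44 in *Lr11* -/- scWAT (SE 0.52, adjusted p = 0.0389), from 0.48, 1.20 and 0.41 to -0.51, -2.56 and -2.16, and was -2.19 without WT scWAT replicate 2 (adjusted p = 0.103). It was also lower in BAT than in scWAT of WT mice (-2.47, adjusted p = 0.00926), whereas *Axin2*, a feedback target of the Wnt pathway, was higher in BAT (2.25, adjusted p = 0.0249). *Fzd4* and *Dvl3*, with the brightest probes of this list, had scWAT genotype differences of 0.96 (SE 0.63, adjusted p = 0.344) and 0.24 (SE 0.24, adjusted p = 0.554). Of the partners of *Lrp4*, *Agrn* and *Rapsn* were tested and did not pass between genotypes (0.47 and 0.45 in scWAT), and both were higher in BAT of WT mice, by 1.04 and 0.82 (adjusted p = 0.0235 and 0.0456). The skeletal muscle marker mean was 5.89, -4.77 and 5.23 on the WT BAT arrays and -3.68, -3.81 and 8.0 on those of WT scWAT. The part of muscle in these differences was not tested. *Cubn*, the partner of megalin, was dim. It read -2.68, -1.85 and -2.31 in WT scWAT, the group through which it was tested, against -4.34, -5.30 and -4.30 in *Lr11* -/- scWAT, where only replicate 1 was well above background, so that the size of the fitted difference of -2.37 (SE 0.40, adjusted p = 0.0266, limma) rests on readings near the background. It was -2.15 without WT scWAT replicate 2 (adjusted p = 0.0647). Beside the 4 called lower, *Plat*, *Dab2*, *Fzd2* and *Cubn*, the stroma marker mean was 2.57 to 4.18 in *Lr11* -/- scWAT against 4.80 to 5.54 in WT scWAT. Of its 5 genes 2 were called lower, beside 1.87% of all probes. The part of stroma in those 4 genes was not tested.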

How the data were processed

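The deposited values are spot intensities from one-colour Agilent arrays, which the authors obtained with Feature Extraction 10.10 as background-subtracted, spatially detrended signals, without scaling between arrays. The deposited table held the same values (largest difference 0). Outlier spots were left out, spots of a probe were averaged after log2, and the array's 75th percentile was subtracted. A probe was tested if at least 1 group had it well above background on its 3 arrays (32121 probes). limma 3.58.1 under R 4.3.3 fitted 4 group means over 12 arrays and 5 contrasts (lmFit, eBayes), with calls at an adjusted p under 0.05. Benjamini-Hochberg adjustment was over all tested probes, for each contrast on its own. data.table (1.17.8), Python 3.11.15 and matplotlib 3.10.9 were also used. Probes were named through their RefSeq accession and a gene table of GRCm38.p6 (27235 of 28685 such probes). Only upstream windows, which come from that assembly, have coordinates here. The brightest tested probe stood for a gene.

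The members and lists were chosen with earlier results of these data known, and some listed genes are not reported here. Named were the 8 members, *Sorl1*, list genes past the threshold in any contrast with up to 2 more of the brightest per list, and the 5 genes most like a member whose group means spanned at least 1. The number of arrays limits the precision, and 3 arrays against 3 give an exact permutation p of at least 0.1, so none was used. Alternatives were 3 other scalings, 2 filters, outlier spots kept, array series or slide as a block, each series alone, array weights, trend and robust eBayes, only the arrays compared, the mean of a gene's probes, the deposited table, and each array left out in turn. Chosen after seeing the data were normexp on the median signals (offset 50), leaving out *Lr11* -/- scWAT replicates 2 and 3 together, likeness without WT scWAT replicate 2, each scWAT array left out of the *Lrp4* bound, and, although fixed earlier for the members, all alternatives for the pathway lists and *Sorl1*.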

Additional observations from a re-analysis of the deposited data

How the results depend on the processing

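The 5 genes gave 720 recomputed differences over 29 settings. Of these 673 kept the sign found with all arrays, 47 took the other sign with neither value past the threshold, and 4 were past the threshold. In the second array series alone the count of members called was 1 in the genotype comparison of scWAT and 1 between BAT and scWAT of WT mice, in both cases *Lrp5*, against 0 with all arrays. Of all 32121 tested probes 7259 and 8130 were called there in turn. Leaving out 1 array at a time, the count between BAT and scWAT of WT mice ranged from 0 to 1, with 1 without WT scWAT replicate 1 (*Lrp5*) or replicate 3 (*Lrpap1*), and it stayed at 0 in the other 4 comparisons. Between the tissues of WT mice 10231 and 8932 of all probes were called without WT scWAT replicate 1 or 3, against 7970 with all arrays. The cause of these changes was not tested. Over all probes the scWAT genotype comparison had 1692 calls, 222 without WT scWAT replicate 2, 3 without *Lr11* -/- scWAT replicate 3, 912 with slide as a block, 838 without scaling and 0 when only scWAT arrays entered the fit. The pathway count there, 5 with all arrays, was 2 with either block, 3 with quantile or median scaling, 14 in the second series alone, 0 without the filter and 0 with only scWAT arrays in the fit, and leaving out single arrays gave 0 to 13. Of all probes 1294 were called there with series as a block, 1565 and 1097 with quantile and median scaling, and 7259 in the second series alone. Without the filter 151 of 55681 were called, and leaving out single arrays gave 3 to 6371. Between the tissues of WT mice the pathway count was 16, ran from 5 to 21 with single arrays left out and was 6 with slide as a block, 6 with only the arrays compared and 8 with array weights. Calls over all probes there were 7970, 3276 to 10231, 3993, 3920 and 5494 in turn. Median scaling moved the median of all probes to 0.17 in scWAT and no scaling to -0.20.

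No paired analysis was possible because the labels carry no replicate numbers, and those used here only name arrays in accession order. Normexp on the mean signals was not run, as the scanner columns used hold median signals. Slides 1 and 2 held the first array series of scWAT and BAT and slide 3 the second series. Members near the background (*Lrp2*, *Lrp4* and *Lrp8*) give at most bounds.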
